A study of Mus musculus with 2 samples.

Results

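Cycling B cell precursors were examined among the CD45+ cells of the mouse cochlea after noise. They were chosen by measured UMIs, as barcodes with at least 3 Cd79a UMIs and at least 3 UMIs over the proliferation genes Mki67 and Top2a, where a UMI (unique molecular identifier) stands for 1 captured RNA molecule. Cells rich in S100a8 and S100a9 (300 or more UMIs per 10000), with 3 or more Siglech UMIs or with 20 or more Jchain UMIs were left out. This left 71 cells of 1556 barcodes. Of those barcodes, 1285 had at least 200 genes, at most 10% mitochondrial UMIs and a single hashtag, and 370 of them met the Cd79a part of the rule. The 4 pools held 22 cycling precursors in sham, 19 on day 3, 20 on day 7 and 10 on day 14 after noise. Their gene UMIs summed to 395070 in sham, 380472 on day 3, 483920 on day 7 and 178595 on day 14. For each condition the cochleae of 6 mice were pooled, digested together and stained with a hashtag antibody of that condition. Living CD45+ cells, which are immune cells, were then sorted and sequenced from their 3′ RNA ends in droplets. The labels call the control both sham and untreated. Strain, age and sex of the mice and the noise level are not given in the sources used here. With 1 pool a condition there are no replicates, so no p-value is given, and every interval is a 95% interval of counting error only.

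B cells form in stages. Pro-B cells join the segments of the heavy chain gene with the recombinases Rag1 and Rag2, while the polymerase Dntt adds bases at the joints. A cell whose heavy chain works pairs it with the surrogate light chain, made of Igll1 with Vpreb1 or Vpreb2, into the pre-B cell receptor. The cell then divides as a large pre-B cell, stops dividing and joins its kappa or lambda light chain gene. In adult mice these steps are known from the bone marrow.

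The cells carried the B lineage genes that the rule did not use. The early B cell factor Ebf1 and the pre-B gene Vpreb3 were detected in 71 of 71 cells, and the interleukin 7 receptor Il7r in 67. Vpreb1 was detected in 42 of 71 cells (59.2%) at a median of 17268 UMIs per cell, against 3 of 99 cycling cells without Cd79a (3.03%) at a median of 32226 UMIs. Igll1 was likewise detected in 42 cycling precursors and in 0 of the 99 other cycling cells. Igkc was less specific, with a UMI in 87.3% of cycling precursors and 21.2% of cycling cells without Cd79a. T cell, natural killer cell and macrophage marker lists summed to at most 14.5 counts per 1000000 UMIs (CPM) in any pool of cycling precursors, with Cd3e, Ncr1, C1qa and Csf1r at 0. Neutrophil markers summed to between 595 and 719 CPM, against 154000 CPM in cycling cells without Cd79a, and all 10 of these markers had UMIs in the cycling precursors. Their part in the results was not tested. Of 10 plasma cell genes, 8 had UMIs, and Prdm1 and Tnfrsf17 were at 0. That list summed to 1280 to 1590 CPM in the pools, against 522 CPM in cycling cells without Cd79a. Of 19 genes of later B cell stages, 16 had UMIs, with pool sums of 1570 to 2310 CPM against 624 CPM. Few cells lay near the selection limits. Among the 370 Cd79a cells, 279 had 0 UMIs of Mki67 and Top2a, 18 had 1, 2 had 2, 0 had 3, 2 had 4, 0 had 5, 2 had 6 and 67 had more than 6, with a median of 54 over the cycling precursors. Among cells under the other limits with at least 3 Mki67 and Top2a UMIs, 56 had 0 Cd79a UMIs, 1 had 1, 0 had 2, 2 had 3, 0 had 4, 1 had 5 and 1 had 6. The 1556 barcodes were the same in the gene and hashtag libraries, which are 2 readouts of the same cells. No doublet caller was run beyond the hashtags, so 2 cells of the same pool under 1 barcode could not be seen.

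Cycling precursors were a small share of the CD45+ cells in each pool. They made up 6.45% of all cells in sham (95% Clopper-Pearson interval 4.09 to 9.61). The day 3 pool held 3.45% (interval 2.09 to 5.33), the day 7 pool 9.26% (interval 5.75 to 13.9) and the day 14 pool 5.65% (interval 2.74 to 10.1). Relative to sham, the day 3 share was 0.534-fold with an interval of 0.274 to 1.03, the day 7 share 1.44-fold with 0.743 to 2.76, and the day 14 share 0.876-fold with 0.370 to 1.93. All of these intervals include 1. The day 3 interval does not at a minimum of 2 Mki67 and Top2a UMIs (0.490, 0.254 to 0.933) or without cells above 2 times the median UMIs (0.472, 0.230 to 0.948). Of the Cd79a cells, they made up 16.8% in sham, 16.1% on day 3, 31.7% on day 7 and 17.2% on day 14. The day 7 share of Cd79a cells was 1.89 times that in sham, with an interval from 0.979 to 3.63. Without cells over the S100a8 and S100a9 limit in the denominator, the day 3 ratio was 0.767 with an interval of 0.393 to 1.48, the day 7 ratio 1.71 with 0.887 to 3.29, and the day 14 ratio 1.13 with 0.479 to 2.50. These are shares of sorted cells, not cell numbers per cochlea.

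**Figure D1:**
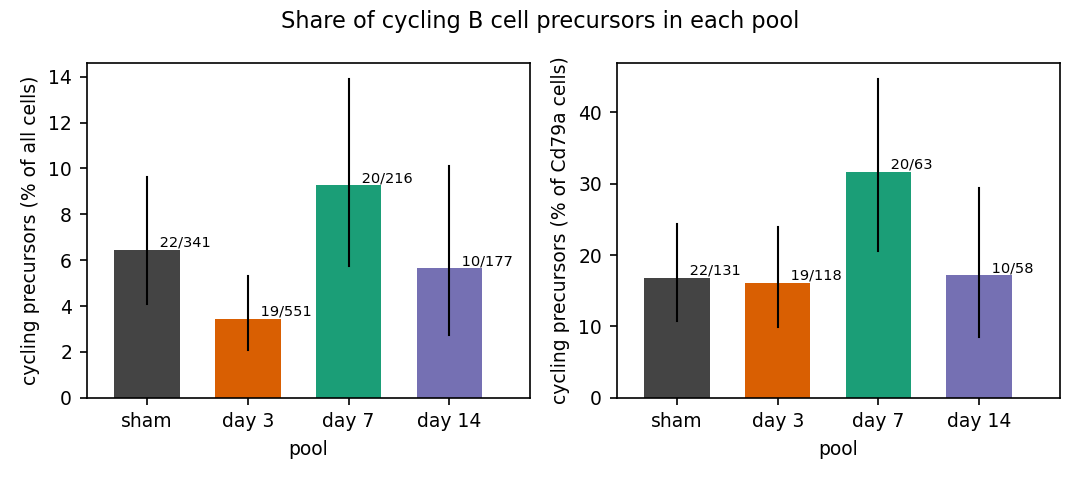
Bars give the percentage of cycling B cell precursors among all cells (left) and among Cd79a cells (right) in each pool, lines the 95% Clopper-Pearson intervals, and labels the cells behind each bar. Day 7 has the highest share on both scales (9.26% and 31.7%), and its interval overlaps that of sham.

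Each cell showed genes of S phase, when DNA is copied, or of G2 and mitosis, when chromosomes are separated. The S phase list held 45 genes and the G2 and mitosis list 56, and neither contained Mki67 or Top2a. These 2 selection genes themselves are highest late in the cycle, so cells early in the cycle were less likely to be chosen. G2 and mitosis genes had 1.21 UMIs per S phase UMI in sham (4315 and 3553 UMIs), 2.26 on day 3, 1.68 on day 7 and 2.69 on day 14. The ratio on day 3 was 1.86 times that in sham (interval 1.75 to 1.98). The day 7 ratio was 1.38 times (interval 1.30 to 1.47) and the day 14 ratio 2.21 times that in sham (interval 2.04 to 2.40). All 3 days thus stood above the same sham pool, which is the only control. Counted by cell, 10 of 22 sham cells had more G2 and mitosis than S phase UMIs, as had 11 of 19 cells on day 3, 9 of 20 on day 7 and 8 of 10 on day 14. The day 14 share of 8 of 10 cells (44.4% to 97.5%) and the sham share of 45.5% (24.4% to 67.8%) have overlapping intervals. UMIs of 1 cell are not independent, so the intervals of the UMI ratios are too narrow for a statement about cells. Restricted to cells with at least 1 surrogate light chain UMI, which left 12 sham, 15 day 3, 16 day 7 and 4 day 14 cells, the ratio to sham was 3.79 on day 3, 2.96 on day 7 and 5.02 on day 14.

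The cells spread over a wide range within each pool. In sham, G2 and mitosis genes took 22.2 to 263 UMIs per 10000 in a cell (median 83.1) and S phase genes 8.18 to 153 (median 86.3). On day 3, the lowest, median and highest G2 and mitosis values were 33.2, 119 and 360. On day 7 they were 16.0, 96.7 and 386, and on day 14 they were 51.8, 162 and 336. All 4 pools overlap on this scale. Over 200 G2 and mitosis UMIs per 10000 were found in 6 sham, 7 day 3, 6 day 7 and 4 day 14 cells. In 4 cells, 2 in sham, 1 on day 3 and 1 on day 14, both lists were low, with under 30 S phase and under 100 G2 and mitosis UMIs per 10000.

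**Figure D2:**
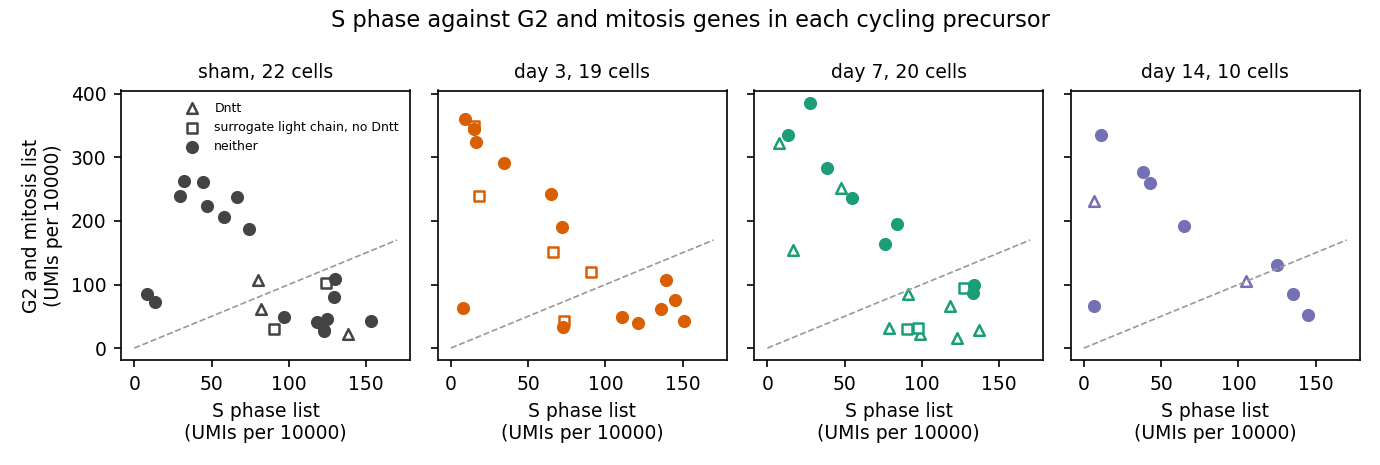
Each point is 1 cycling precursor, with S phase list UMIs per 10000 on the x axis and G2 and mitosis list UMIs per 10000 on the y axis, 1 panel a pool. The dashed line marks equal values, and 10, 11, 9 and 8 cells lie above it in sham and on days 3, 7 and 14, while open symbols mark cells with Dntt or surrogate light chain UMIs.

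Many single genes of G2 and mitosis were higher than in sham. Of the 54 members measured on day 3, the ones with 30 UMIs or more over the 2 pools compared, 26 were at least 1.5-fold higher and 1 was lower, at a median log2 ratio of 0.56. Over all 3651 genes measured on day 3, 8.79% were at least 1.5-fold higher and 8.93% lower, at a median of -0.01. On day 7, 18 of 55 members were higher and 0 lower (median 0.35), against 8.80% higher and 7.98% lower over 4012 genes. On day 14, 30 of 52 were higher and 1 lower (median 0.63), against 11.7% higher and 11.1% lower over 2945 genes. Ube2c, the enzyme that loads ubiquitin for the anaphase-promoting complex, stood at 425 CPM in sham, 1280 on day 3, 940 on day 7 and 1460 on day 14. Its day 3 ratio to sham was 3.01 (2.52 to 3.61), its day 7 ratio 2.21 (1.85 to 2.66) and its day 14 ratio 3.42 (2.81 to 4.18), all against the same sham pool.

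Other genes of exit from G2 and of mitosis gave similar values. Ccnb1, the cyclin that drives entry into mitosis with Cdk1, had 119 CPM in sham, 294 on day 3, 329 on day 7 and 274 on day 14. Kpna2, an importin, had 58.2, 200, 169 and 213 CPM in the same order, and ratios to sham of 3.43 (2.13 to 5.73), 2.91 (1.81 to 4.84) and 3.65 (2.12 to 6.43). Cdc20, an activator of the anaphase-promoting complex, had 149, 318, 256 and 381 CPM. The kinetochore gene Cenpf had 309, 689, 570 and 666 CPM. Birc5, a member of the chromosomal passenger complex, differed less, with 542, 660, 585 and 845 CPM and a day 3 ratio of 1.22 (1.01 to 1.47). The alpha-tubulin gene Tuba1c had 119, 378, 242 and 409 CPM, whereas the more abundant Tuba1b had 2220, 2090, 1910 and 2760 CPM. The sham pool was the lowest of the 4 for Ube2c, Ccnb1, Kpna2, Cdc20, Cenpf, Birc5 and Tuba1c.

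S phase genes were more often lower than higher on days 3 and 14. On day 3, 11 of 41 measured members were at least 1.5-fold lower and 0 higher (median log2 ratio -0.37), and on day 14, 14 of 38 were lower and 0 higher (median -0.39). On day 7, 2 of 42 were lower and 1 was higher (median -0.15), beside 7.98% lower and 8.80% higher over all genes. Mcm2, a subunit of the helicase that unwinds DNA at the fork, had 205 CPM in sham, 116 on day 3, 151 on day 7 and 67.2 on day 14. Mcm6 of the same helicase had 339, 263, 322 and 157 CPM. Tyms, which makes thymidylate, had 240, 131, 254 and 230 CPM. The uracil-DNA glycosylase Ung had 2 UMIs in the day 14 cells and 35 in the sham cells, a ratio of 0.126 (0.0147 to 0.492).

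Restricting the cells to those with more G2 and mitosis than S phase UMIs, a choice made after the values were seen, left 10 sham, 11 day 3, 9 day 7 and 8 day 14 cells. Among them the median log2 ratio of the G2 and mitosis list was 0.26 on day 3, 0.36 on day 7 and -0.02 on day 14. At least 1.5-fold higher were 11 of 53 members on day 3, 20 of 53 on day 7 and 6 of 46 on day 14, beside 227 of 2191, 198 of 1945 and 155 of 1705 of all genes measured in these cells. The median of the S phase list was then -0.06 on day 3 and -0.03 on day 14. The cells were chosen by UMIs of these same 2 lists, so the choice itself sets these medians in part.

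**Figure D3:**
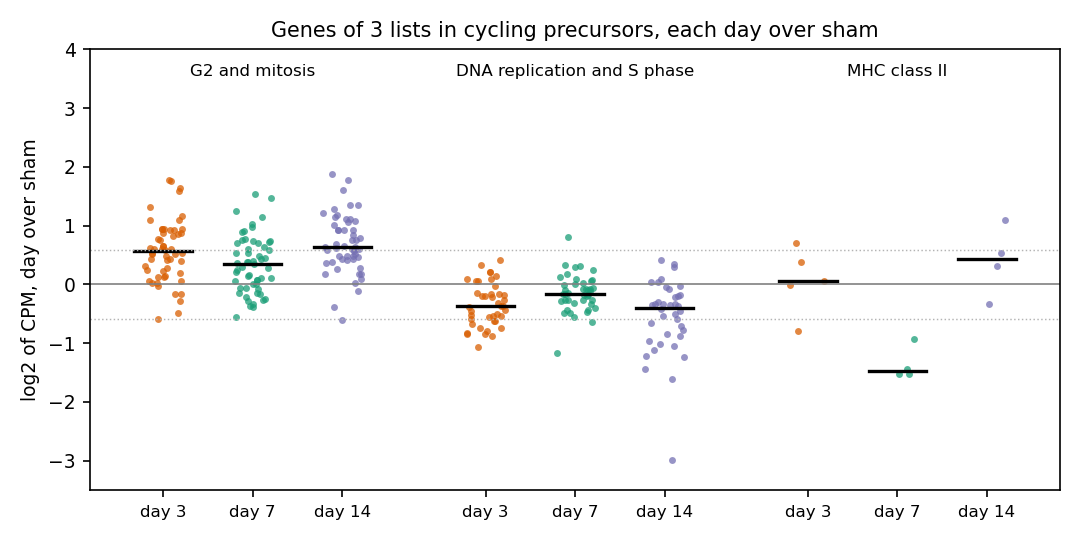
Each point is a gene of the named list, with its log2 ratio of CPM in cycling precursors, day over sham, on the y axis. Black bars are medians, dotted lines mark 1.5-fold, and the medians are 0.56, 0.35 and 0.63 for G2 and mitosis, -0.37, -0.15 and -0.39 for S phase, and 0.05, -1.48 and 0.43 for MHC class II on days 3, 7 and 14.

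Promoter sequences of these genes are shown because the 2 groups are known to be read through different motifs. Late genes are bound through the cell cycle genes homology region (CHR) and CCAAT boxes, and S phase genes through E2F sites. Windows of 250 bases before to 50 after the start were taken from RefSeq (build GRCm38.p6), with capitals for CHR letters (TTTGAA or TTTAAA) and CCAAT in the Ccnb1 and Ube2c windows, and for E2F letters in the Mcm6 window, on either strand. E2F letters were searched as TTCCCGC, with the second form TTCGCGC, the third form TTGCCGC and the fourth form TTGGCGC. Unmarked are 1 E2F match in the Ccnb1 window, which overlaps a CCAAT, and 2 CCAAT matches in the Mcm6 window. In Mcm6 some E2F matches overlap, as do 2 CCAAT matches in Ube2c. The windows lie at chr13:100786437-100786736 on the minus strand (Ccnb1), chr2:164769679-164769978 on the plus strand (Ube2c) and chr1:128359656-128359955 on the minus strand (Mcm6).
Ccnb1: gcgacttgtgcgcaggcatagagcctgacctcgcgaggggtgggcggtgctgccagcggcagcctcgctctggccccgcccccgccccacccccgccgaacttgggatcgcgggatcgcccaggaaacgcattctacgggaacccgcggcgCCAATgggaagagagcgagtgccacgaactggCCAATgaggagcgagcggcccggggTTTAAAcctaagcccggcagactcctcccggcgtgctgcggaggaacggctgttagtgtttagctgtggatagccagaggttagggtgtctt
Ube2c: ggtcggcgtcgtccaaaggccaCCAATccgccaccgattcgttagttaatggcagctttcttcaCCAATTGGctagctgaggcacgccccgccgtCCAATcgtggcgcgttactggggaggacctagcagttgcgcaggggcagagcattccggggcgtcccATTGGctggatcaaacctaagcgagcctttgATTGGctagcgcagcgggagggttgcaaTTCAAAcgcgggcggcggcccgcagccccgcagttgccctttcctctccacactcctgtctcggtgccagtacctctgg
Mcm6: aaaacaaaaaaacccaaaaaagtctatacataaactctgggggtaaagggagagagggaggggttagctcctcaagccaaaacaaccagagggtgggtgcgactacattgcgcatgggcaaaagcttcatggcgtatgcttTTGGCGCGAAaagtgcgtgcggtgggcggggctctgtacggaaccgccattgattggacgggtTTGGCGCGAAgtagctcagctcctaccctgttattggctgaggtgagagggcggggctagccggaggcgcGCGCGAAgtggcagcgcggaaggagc

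CHR letters were found in 37 of 50 windows (74.0%) of the 47 G2 and mitosis genes that matched the table, out of 56 in the list. They were found in 10 of 43 windows (23.3%) of the 36 matched S phase genes, out of 45, and in 27.6% of all 32851 windows. CCAAT was present in 76.0% of G2 and mitosis windows, 55.8% of S phase windows and 37.4% of all windows. E2F letters were present in 18.0% of G2 and mitosis windows, 62.8% of S phase windows and 9.57% of all windows. A list of 10 recombination genes was searched as well, of which 9 matched. Of their 10 windows, 50.0% held CHR letters, 40.0% CCAAT and 40.0% E2F letters. These shares describe letters, and binding was not measured.

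Beyond the cycle genes, the cycling precursors fell into stages of B cell development. The stages were drawn after the values were seen, as cells with at least 2 Dntt UMIs, cells with at least 10 surrogate light chain UMIs (Vpreb1, Vpreb2 and Igll1 together) without Dntt, and the rest. The 15 cells with Dntt held 35 to 153 surrogate light chain UMIs (median 70) and a median of 0 Igkc UMIs. The 10 cells with surrogate light chain but no Dntt held 14 to 74 such UMIs and 3 to 35 Igkc UMIs, and they were the deepest, with a median of 30224 UMIs, against 21708 in cells with Dntt and 15224 in the rest. The other 46 cells held at most 8 surrogate light chain UMIs and 3 to 93 Igkc UMIs (median 23). Surrogate light chain UMIs chose the stages, whereas kappa UMIs did not and were highest in the last of them. G2 and mitosis genes had 1.25 UMIs per S phase UMI in cells with Dntt, 1.24 in cells with surrogate light chain only and 2.31 in the rest. Among cells with Dntt, this value was 0.599 in the 4 sham cells, 1.29 in the 9 day 7 cells and 2.84 in the 2 day 14 cells. Among cells with surrogate light chain only, it was 0.526 in the 2 sham cells, 2.25 in the 5 day 3 cells and 0.494 in the 3 day 7 cells. In the rest it was 1.64 in sham, 2.26 on day 3, 3.45 on day 7 and 2.64 on day 14.

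**Figure D4:**
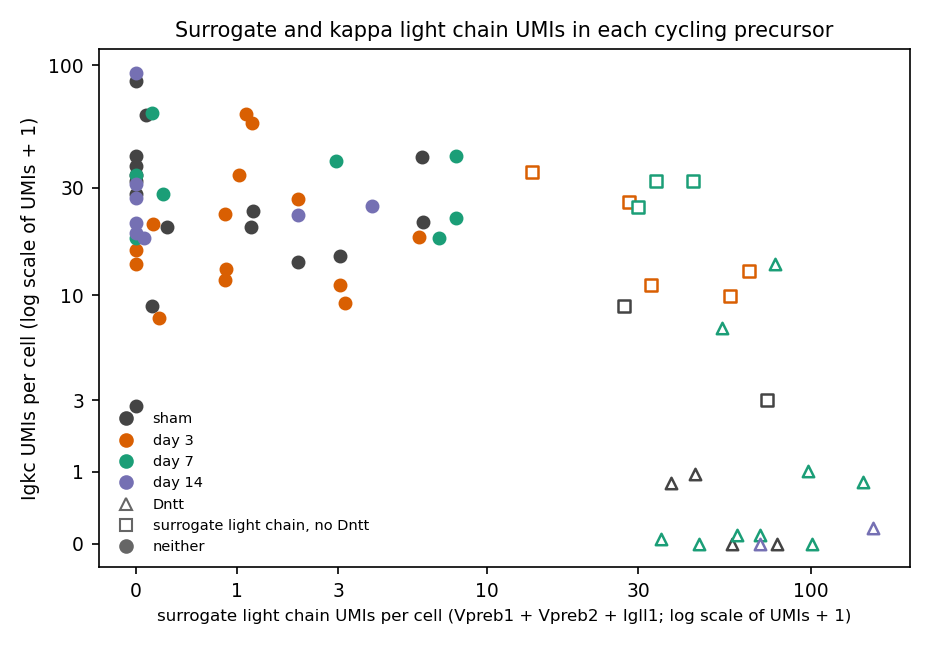
Each point is 1 cycling precursor, with surrogate light chain UMIs on the x axis and Igkc UMIs on the y axis, both as the log of UMIs + 1 and with points spread slightly for visibility. Triangles (15 cells with Dntt) lie at the right, 13 of them with at most 1 Igkc UMI, squares (10 cells with surrogate light chain and no Dntt) between, and filled circles (46 other cells) at the upper left.

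Genes that did not choose the stages varied with them, and are given as a description. Rag1 had 110 CPM in cells with Dntt (39 UMIs in 11 of 15 cells), 0 UMIs in all 10 cells with surrogate light chain only, which held 333309 UMIs, and 34.7 CPM in the rest (26 UMIs in 14 of 46 cells). Rag2 had 84.5, 27.0 and 36.0 CPM in the same order. Lef1, a transcription factor of the Wnt pathway used by pro-B cells, had 335, 120 and 69.4 CPM. The stem cell factor receptor Kit had 5 UMIs in all, in 2 of the 15 cells with Dntt. The Ets factor Spib went the other way, with 28.2, 108 and 312 CPM, as did Bach2, a repressor active in B cells, with 104, 300 and 397 CPM. The heat-stable antigen Cd24a had 679, 1650 and 1430 CPM. Ebf1 was close to level, with 2470, 2040 and 2670 CPM.

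Further genes were named after their values were seen, as those farthest apart between the 15 cells with Dntt and the 46 with neither. The scaffold gene Dlg2 had 55 UMIs in cells with Dntt and 1 in the rest, the membrane protein gene Emp1 35 and 0, and the insulin-like growth factor binding protein gene Igfbp4 74 and 8. The interferon-induced membrane protein gene Ifitm2 had 94 and 8 UMIs. Lower in cells with Dntt was Fcrla, an Fc receptor-like gene of B cells, at 25.4 CPM against 686 (ratio 0.0370, 0.0168 to 0.0707). The MHC class II invariant chain Cd74 had 36.6 CPM against 851, and H2-Aa, an MHC class II chain, 28.2 against 616. The interferon regulatory factor Irf4 had 25.4 CPM against 215. Of the 15 cells with Dntt, 9 came from day 7. Within the sham pool alone, Cd74 had 0 UMIs in the 4 cells with Dntt and 997 CPM in the 16 with neither, and Igkc had 27.1 and 1900 CPM. Within day 7, Cd74 had 50.9 CPM in the 9 cells with Dntt and 595 CPM in the 8 with neither.

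The surrogate light chain promoters are shown because both genes mark the early stages. They lie next to each other on chromosome 16, both on the minus strand, at chr16:16863936-16864235 (Igll1) and chr16:16869206-16869505 (Vpreb1) in the same RefSeq table. Capitals mark the E box letters CAGGTG or CACCTG, a site bound by E2A, the Tcf3 product needed for B cell development.
Igll1: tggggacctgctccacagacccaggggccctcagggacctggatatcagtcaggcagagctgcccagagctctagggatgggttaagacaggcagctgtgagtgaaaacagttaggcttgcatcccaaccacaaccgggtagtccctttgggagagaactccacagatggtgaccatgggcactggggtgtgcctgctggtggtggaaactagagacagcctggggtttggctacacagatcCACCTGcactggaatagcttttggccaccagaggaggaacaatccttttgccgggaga
Vpreb1: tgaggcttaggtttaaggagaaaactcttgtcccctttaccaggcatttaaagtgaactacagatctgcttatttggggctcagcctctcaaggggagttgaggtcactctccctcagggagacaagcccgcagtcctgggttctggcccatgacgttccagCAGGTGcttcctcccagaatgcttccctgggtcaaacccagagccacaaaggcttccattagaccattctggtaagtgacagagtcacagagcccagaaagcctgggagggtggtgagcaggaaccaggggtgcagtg

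These letters were present in 8 of 10 windows of the 9 matched genes of the pre-B receptor list, out of 14, and in 20.2% of all windows. They were present in 1 of the 10 windows of the recombination genes. Each of the Igll1 and Vpreb1 windows held 1 match.

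Dntt cells were absent from the day 3 pool of cycling precursors. They numbered 4 of 22 in sham (5.19% to 40.3%), 0 of 19 on day 3, 9 of 20 on day 7 (23.1% to 68.5%) and 2 of 10 on day 14 (2.52% to 55.6%). Counting the 0 of 19 as 3 cells would allow 15.8%. Dntt had 113 UMIs in sham, 0 on day 3, 196 on day 7 and 102 on day 14. With 0 counted as 3 UMIs, Dntt was 36.3-fold lower on day 3 than in sham, and the interval of the ratio reached up to 0.0345. However, 1 sham cell held 57.5% of the sham UMIs. Dntt was 1 of the genes that chose the non-cycling precursors, so its share among them is set in part by that choice. Among those, 11 of 52 cells in sham, 19 of 50 on day 3 (38.0%, 24.7 to 52.8), 5 of 22 on day 7 and 7 of 27 on day 14 had at least 2 Dntt UMIs. With every cell thinned to 5000 UMIs, Dntt was detected in 4 of 22 cycling precursors in sham, 0 of 19 on day 3, 7 of 20 on day 7 and 2 of 10 on day 14. Of the thinned non-cycling precursors, 11 of 31, 16 of 33, 4 of 15 and 6 of 16 had it in the same pools. Dntt (ENSMUSG00000025014) lies at chr19:41029275-41059525.

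The surrogate light chain genes followed these cells. Vpreb1 had 491 CPM in sham, 302 on day 3, 994 on day 7 and 829 on day 14, with a day 7 ratio to sham of 2.02 (1.71 to 2.40). Igll1 had 309, 258, 595 and 414 CPM. On day 14, 1 cell held 67.6% of the Vpreb1 and 66.2% of the Igll1 UMIs. Igkc, the kappa constant region, had 1270, 1100, 775 and 1440 CPM. Rag1 was low throughout, at 48.1, 23.7, 57.9 and 50.4 CPM. Counting only cycling precursors with fewer than 2 Dntt UMIs, a choice made after the values were seen, left 18 in sham and 11 on day 7. Of all cells in each pool, their day 7 share was 0.965 times that in sham (0.412 to 2.16), against 1.44 times with all cycling precursors. This drop follows from the counts of Dntt cells given above and is not a separate result.

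Ighg2b, the constant region of the IgG2b heavy chain, was found almost only in cells with Dntt on day 7. It had 51 UMIs in 5 of 20 day 7 cells, 1 UMI on day 3, 1 on day 14 and 0 in sham. Day 7 was 13.9-fold higher than sham with 0 counted as 3 UMIs, and the interval of the ratio began at 10.9. All 5 day 7 cells carried Dntt, out of 9 such cells, and the highest cell had 22 UMIs, 43.1% of the day 7 total. None of the 4 sham cells with Dntt had a UMI. Ighg2b had a UMI in 0 of 99 cycling cells without Cd79a and in 3 of 151 non-cycling precursors. Reads shared with the other IgG constant region genes were not examined. The linker histone gene H1f0 had 28 UMIs on day 7 and 2 in sham (ratio 11.4, 2.88 to 99.0), and 25 of the 28 were in 4 cells with Dntt. Ighg2b (ENSMUSG00000076613) lies at chr12:113302965-113307933.

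MHC class II genes, which present peptides to T cells, were lower on day 7. All 4 measured members were at least 1.5-fold lower, with a median log2 ratio of -1.48, against 7.98% of all genes. At a minimum of 10 UMIs, 5 of 8 members were lower, at a median of -0.95. Cd74 had 645 CPM in sham, 373 on day 3, 225 on day 7 and 941 on day 14, and its day 7 ratio to sham was 0.349 (0.276 to 0.438). The day 14 value rested largely on 1 cell, the one with Ms4a1 described below. That cell held 95 of the 167 Cd74 UMIs in the 8 day 14 cells with neither Dntt nor surrogate light chain. H2-Aa had 466, 463, 172 and 370 CPM, and H2-Ab1 283, 368, 149 and 353 CPM. The cells with Dntt, most numerous on day 7, had few of these UMIs. Among cells with fewer than 2 Dntt UMIs, 4 of 4 measured members were at least 1.5-fold lower on day 7, at a median of -0.97. Within the stage with neither Dntt nor surrogate light chain, Cd74 had 595 CPM in the 8 day 7 cells and 997 CPM in the 16 sham cells, H2-Aa 463 CPM on day 7 and 704 CPM in sham, and H2-Ab1 332 CPM on day 7 and 414 CPM in sham. In the same stage the 14 day 3 cells had 601 CPM of Cd74, close to day 7. Their H2-Aa (705 CPM) was close to sham instead, and their H2-Ab1 (551 CPM) was above both.

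Immediate early genes, switched on within minutes of a stimulus and also by tissue digestion, were lower on day 7 as well. Of 12 measured members, 7 were at least 1.5-fold lower and 0 higher (median log2 ratio -0.66), against 7.98% lower and 8.80% higher over all genes. The AP-1 gene Junb had 463 CPM in sham, 431 on day 3, 221 on day 7 and 610 on day 14. Dusp1, a phosphatase of stress kinases, had 129, 84.1, 53.7 and 129 CPM. The median was -1.16 without cells with Dntt and -0.07 among cells with at least 1 surrogate light chain UMI. Nfkbia, the inhibitor that NF-kB induces, had 977, 788, 492 and 1080 CPM, and 3 of 6 measured NF-kB list genes were lower on day 7. The glucocorticoid receptor gene Nr3c1 had 88.6, 92.0, 28.9 and 67.2 CPM. Each pool was digested by itself, and a difference in digestion cannot be told apart from the day after noise.

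Other groups are read against the shares over all genes, which were 8.79% higher and 8.93% lower on day 3, 8.80% and 7.98% on day 7, and 11.7% and 11.1% on day 14. On day 3, 6 of 21 measured B lineage transcription factor genes were higher and 1 was lower (median log2 ratio 0.03). The lower one was Id3, an inhibitor of E proteins, at 108 CPM on day 3 against 228 CPM in sham (ratio 0.473, 0.319 to 0.692). Of the type I interferon list, only Ifi27l2a reached 30 UMIs, with 180 CPM in sham, 216 on day 3, 120 on day 7 and 207 on day 14. Histone and chromatin genes had 0 higher and 1 lower of 17 measured on day 3, and 2 higher and 0 lower of 17 on day 14. Glycolysis genes had 0 higher and 1 lower of 10 measured members on day 3, 0 and 1 of 11 on day 7, and 0 and 2 of 9 on day 14. Myc targets and ribosome-making genes had 0 higher and 3 lower of 12 on day 3, and 1 and 4 of 11 on day 14. The pre-B receptor list had 4 higher and 0 lower of 13 on day 7, and homing and adhesion genes 2 and 2 of 6.

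Some of the genes farthest from sham lay outside the cycle lists. Gsn, which encodes the actin-severing gelsolin, had 65.8 CPM in sham, 210 on day 3 and 186 on day 7, with ratios to sham of 3.19 (2.03 to 5.18) and 2.83 (1.81 to 4.56). The mismatch repair gene Msh6 had 23.7 CPM on day 3 against 96.2 CPM in sham (ratio 0.246, 0.105 to 0.517). Pnp, purine nucleoside phosphorylase, had 63.1 CPM on day 3 against 172 CPM in sham (0.366, 0.220 to 0.591). Pnp was also 4.96 times higher in cells with Dntt than in cells with neither, and day 3 had none with Dntt. On day 7, the calcitonin receptor partner Ramp1 had 172 CPM against 68.3 CPM in sham (ratio 2.51, 1.61 to 4.03). Irf1, an interferon regulatory factor, had 41.3 CPM on day 7 against 124 CPM in sham (0.333, 0.188 to 0.571). Gadd45a, induced by DNA damage, had 20.7 CPM on day 7 against 73.4 CPM in sham (0.282, 0.122 to 0.594).

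On day 14 the lymphoid surface gene Ly6d had 174 CPM against 17.7 CPM in sham (ratio 9.80, 4.23 to 26.4), with 48.4% of its day 14 UMIs in 1 cell. Tnfrsf13c, the receptor for the survival factor BAFF, had 190 CPM on day 14 against 60.7 CPM in sham (3.13, 1.80 to 5.52). Of the 5 later B cell stage genes measured on day 14, 4 were at least 1.5-fold higher and 0 lower, against 11.7% higher and 11.1% lower over all genes. Day 14 had the fewest cells, and 1 of the 10 had a profile unlike the label. It held 16 UMIs of Ms4a1, which encodes CD20, with 93 of Igkc, 95 of Cd74, 4 of Vpreb3 and 0 of Il7r and Vpreb1. Only 1 other cycling precursor had a Ms4a1 UMI.

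Cycling precursors held more UMIs than non-cycling precursors, the 151 cells with fewer than 3 Mki67 and Top2a UMIs and at least 2 UMIs over Vpreb1, Igll1, Rag1, Rag2 and Dntt. Their median was 17268 UMIs and 4023 genes per cell, against 5649 UMIs and 2082 genes. The selection set this contrast, so what follows describes it without a test. Of 1938 genes measured in every pool, 14.0% were at least 1.5-fold higher in cycling precursors in all 4 pools and 10.5% were lower in all 4. Among the 271 higher genes were 28 of 29 measured G2 and mitosis genes, 16 of 17 S phase genes and 15 of 16 histone and chromatin genes. Outside the lists, Pclaf, which binds the replication clamp PCNA, was the farthest, with log2 ratios from 6.65 to 8.85 over the pools. It was followed by the kinesin Kif15 (4.25 to 6.04) and the condensin Smc2 (3.92 to 5.14). The chromatin protein Hmgb2 had 6250 CPM in cycling and 422 CPM in non-cycling precursors, and the microtubule regulator Stmn1 2720 and 118 CPM.

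Cyclins and their inhibitors split by gene. Ccnd3, the D-type cyclin that large pre-B cells need, had 711 CPM in cycling and 229 CPM in non-cycling precursors, and log2 ratios between 1.31 and 1.93 in the 4 pools. Ccnd2 was low in both classes, at 24.8 to 112 CPM in the pools of cycling and 16.7 to 69.2 CPM in those of non-cycling precursors. The 112 CPM was that of day 14, where all 20 Ccnd2 UMIs lay in the cell with Ms4a1 described above. Cdkn1b, the inhibitor p27, had 134 CPM in cycling and 261 CPM in non-cycling precursors (log2 ratios -1.05 to -0.67), whereas the inhibitor Cdkn2c had 155 and 22.6 CPM. Among metabolic genes, Gapdh of glycolysis had 1150 and 373 CPM, and Pgk1 222 and 92.3 CPM. Psmb9, an immunoproteasome subunit, had 211 and 96.6 CPM, while the MHC class I gene H2-K1 was lower in cycling than in non-cycling precursors, by a ratio of 0.518.

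Genes of the B lineage took a smaller share of the RNA of cycling precursors. Ebf1 had 2470 CPM in cycling and 5910 CPM in non-cycling precursors, with log2 ratios from -1.33 to -1.18. Vpreb3 had 2230 and 4200 CPM, Cd79b, a chain of the receptor complex, 874 and 2150, and the kinase gene Syk 204 and 494. Foxo1, the factor that turns on the Rag genes, had 62.6 and 242 CPM. Rag1 had 45.2 CPM in cycling and 534 CPM in non-cycling precursors, but it is 1 of the 5 genes that chose the non-cycling cells. Thinned to 5000 UMIs, Rag1 was detected in 12.7% of cycling and 90.5% of non-cycling precursors. The lambda constant regions Iglc1 and Iglc2 had 0 UMIs in cycling precursors, and Iglc3 had 3 UMIs in 1 cell. With 0 counted as 3 UMIs, Iglc2 was 213-fold lower than its 443 CPM in non-cycling precursors. Those UMIs lay in a minority of the non-cycling cells, 36 of 151 for Iglc2 and 25 of 151 for Iglc1. Reads shared between these near-identical lambda genes were not examined.

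Immediate early genes were mostly lower in cycling precursors. Of the 10 immediate early genes measured, 7 were lower in all 4 pools and 0 higher, against 10.5% lower and 14.0% higher over all 1938 genes. Btg2, an inhibitor of proliferation, had 348 CPM in cycling and 1280 CPM in non-cycling precursors, and the AP-1 gene Jund 1550 and 4310 CPM. Beside the same share of 10.5% over all genes, 1 of 5 measured p53 and DNA damage genes was lower in all 4 pools, and 1 of 2 survival and death genes. The survival gene Mcl1 had 209 and 681 CPM, and Trp53inp1, induced by p53, 29.2 and 189 CPM. Outside the lists, the lowest were the selenium carrier Selenop (19.5 and 258 CPM), the sodium pump subunit Atp1b1 (175 and 1030 CPM) and the actin-binding Lsp1 (63.3 and 325 CPM). The depth of the 2 classes differed, at a median of 17268 UMIs in cycling and 5649 UMIs in non-cycling precursors, and its part in these differences was not tested.

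**Figure D5:**
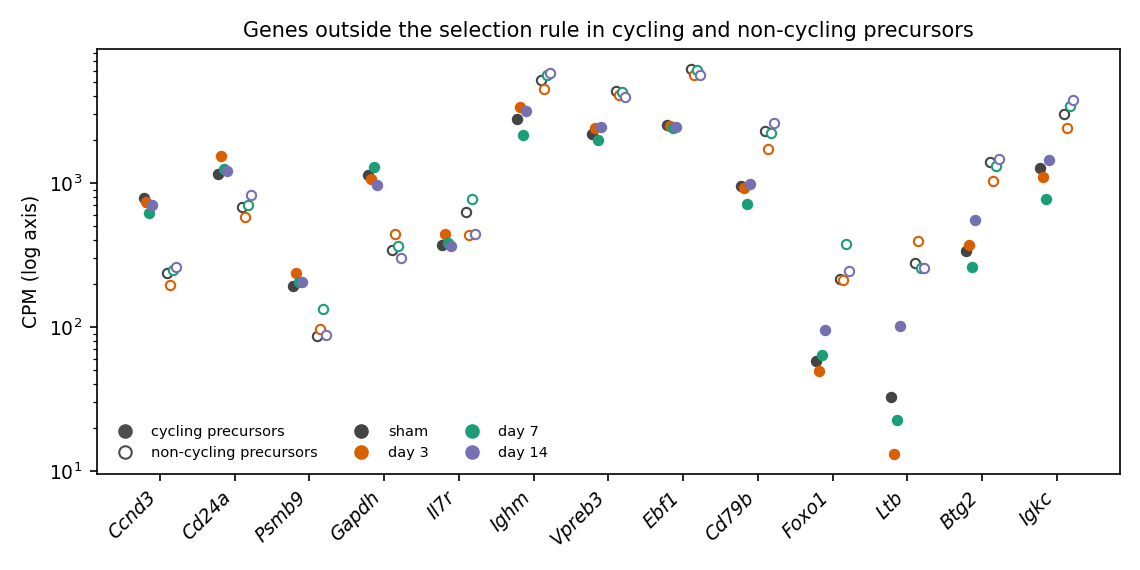
Points give CPM on a log axis in each pool for cycling (filled, left) and non-cycling precursors (open, right), coloured by pool. Ccnd3, Cd24a, Psmb9 and Gapdh are higher in cycling precursors in all 4 pools, and Ebf1, Vpreb3, Cd79b, Foxo1, Ltb, Btg2 and Igkc are lower. Counted by cell, Igkc was not lower. With cells thinned to the same depth, it was detected in 55 of 71 cycling precursors (77.5%, 66.0 to 86.5). Of the non-cycling precursors deep enough to be thinned, 55 of 95 had it (57.9%, 47.3 to 68.0), and these intervals overlap.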

How the data were processed

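Gene and hashtag UMI counts of 1 droplet experiment were deposited as raw counts of 1556 barcodes, written by Cell Ranger 3.1.0 per the file headers and on build mm10 per the submitters' processing notes. The labels name the kit both as v2 and as v3. The cell calling step is not stated in the labels or headers. A barcode was put in a pool where its top hashtag had at least 10 UMIs and 80% of the hashtag UMIs. UMIs were summed over the cells of a pool and given per 1000000 (CPM). A gene was measured with 30 UMIs or more over the 2 pools compared (for the 2 classes, over both classes in every pool), and called higher or lower at 1.5-fold. Ratios have exact conditional Poisson intervals, shares Clopper-Pearson intervals and ratios of UMI ratios conditional exact intervals, all at 95% and for counting error only. For log2 ratios a 0 was set to 3 UMIs. Genes outside the lists were the 8 farthest from sham each way by the interval bound nearest 1, still past 1.5-fold without their top cell, and the 12 farthest each way between classes. The cells and lists were chosen with earlier results of these data known. The code was tested on simulated Poisson counts of whole pools. That simulation held no differences between cells, so it could not show whether the intervals hold across cells. Gene positions are GENCODE vM21, in which all 545 IDs were found. The software was matplotlib 3.10.9, pandas 2.3.3, scipy 1.17.1 and numpy 2.4.6 under Python 3.11.15. Alternatives changed the filters, thresholds, depth, weighting and gene minimum.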

Additional observations from a re-analysis of the deposited data

How the results depend on the processing

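Of 321 values recomputed under 15 other settings and 3 more chosen after seeing the data, 257 stayed within the reported interval or within 1.5 times the reported count of genes or share of a list called, 63 moved and 1 list median changed sign. The share ratios to sham stayed within the reported intervals, at 0.465 to 0.774 on day 3, 0.965 to 2.10 on day 7 and 0.642 to 1.09 on day 14, and so crossed 1 on day 7 (0.965, cells with fewer than 2 Dntt UMIs) and day 14 (1.09, thinned cells). The ratio to sham of G2 and mitosis per S phase UMIs was 2.01 (day 3) and 1.93 (day 14) at 5% mitochondrial UMIs, 1.70, 1.26 and 2.02 (days 3, 7 and 14) without cells holding other-lineage UMIs, 3.79, 2.96 and 5.02 with only cells holding surrogate light chain UMIs, 2.10 and 1.97 (days 3 and 14) without the deepest cells, 1.71 and 1.90 with cells weighted alike, and 1.89 (day 14) with thinned cells. Under those added later it was 1.64, 1.5 and 1.92 for cells with fewer than 2 Dntt UMIs, and 2.63 on day 14 without the Ms4a1 cell. Genes higher and lower than sham numbered 75 and 81, 82 and 89, and 70 and 62 (days 3, 7 and 14) with thinned cells, 1032 and 997, 1084 and 911, and 1084 and 1103 at a minimum of 10 UMIs, and 42 and 38, 42 and 45, and 53 and 44 at 100 UMIs. With only cells holding more G2 and mitosis than S phase UMIs, 198 were higher on day 7, and 155 were higher and 199 lower on day 14. Without each gene's top cell, 194 were higher and 667 lower on day 14. Genes higher and lower in cycling than in non-cycling precursors in all 4 pools numbered 142 and 79 at 5% mitochondrial UMIs and 69 and 45 with thinned cells, and 168 were higher with only cells holding surrogate light chain UMIs. Thinning and the gene minimum change how many genes are measured; the cause of the other moves was not tested. The G2 and mitosis median on day 14 reversed to -0.02 with only cells high in G2 and mitosis UMIs. The MHC class II median on day 7 was -0.95 at a minimum of 10 UMIs. No paired analysis was possible because each condition is 1 pool. Depth limits genes under about 30 UMIs, and the day 14 pool has 10 cells.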
